A study of Mus musculus with 12 samples.

Results

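The cytosolic ribosomal protein genes encode the protein components of the large and small subunits of the ribosome and of its stalk. Of 23420 gene symbols counted, 84 had the naming pattern of this family (Rpl or Rps followed by a number, plus Rplp0, Rplp1, Rplp2 and Rpsa). Of these, 79 had a summed count of at least 100 over the 4 mRNA libraries and are described here: 44 genes of the large subunit, 32 of the small subunit and 3 of the stalk. The regions of BMAL1 binding within 1 kb of their annotated starts were taken with them, 20 of the 4740 regions.

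Per the labels, the study induced PER2 in mouse embryonic fibroblasts and measured BMAL1 binding by ChIP-seq and polyadenylated RNA by mRNA-seq. The cells carried the transgene PER2-ER in a 129/sv background with the genotype per1 -/-, per2 -/-, nr1d1 -/-, nr1d2 -/-, so every group shared the loss of both Period and both REV-ERB genes. They were given 1 µM 4-hydroxytamoxifen (4-OHT) or its solvent, 0.1% ethanol (EtOH), for 4 hours. Each of the 6 groups (mRNA, BMAL1 ChIP and input, each with 4-OHT and with EtOH) had 2 libraries, and the labels do not state whether the replicates came from separate cultures, so each p-value speaks only of the spread from library to library. The labels used here give neither the promoter of the transgene nor the number of clones, and no 4-OHT-treated cells without the transgene were analysed here. Effects of PER2-ER and of the ligand itself therefore cannot be told apart.

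Most ribosomal proteins are needed in equal numbers, and their genes are among the most highly expressed of growing cells. Many of their mRNAs begin with a C followed by a run of pyrimidines, the terminal oligopyrimidine (TOP) motif, through which growth signals such as mTORC1 set their translation. BMAL1 with its partner CLOCK activates genes through the E-box CACGTG, and PER2 with the cryptochromes represses this activity. In mouse liver the clock has been linked to ribosome biogenesis, in which transcripts of ribosomal proteins take part.

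Promoter sequences (RefSeq, GRCm38.p6, 250 bases before to 50 after the start) were matched for 59 of the 79 genes, 16 of them with a BMAL1 region. The palindrome CACGTG lay in 5 of the 59 (8.47%), against 8.24% of the 16375 matched promoters of all genes in the count table. It lay in 3 of the 16 members with a region (18.8%), against 29.4% of all matched genes with a region, and in 2 of the 43 members without one (4.65%). The windows around the 5 matches are shown because they are the sites of the letters that BMAL1 is known to bind, with the E-box in capitals and on the strand of the gene. A match is a description of these letters and not a measured binding site.
Rpl13a (chr7:45128920-45128965, minus strand): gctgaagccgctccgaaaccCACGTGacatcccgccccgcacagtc
Rpl14 (chr9:120571329-120571374, plus strand): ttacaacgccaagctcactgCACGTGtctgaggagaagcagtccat
Rpl23 (chr11:97782417-97782462, minus strand): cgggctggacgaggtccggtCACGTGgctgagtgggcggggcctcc
Rpl19 (chr11:98026671-98026716, plus strand): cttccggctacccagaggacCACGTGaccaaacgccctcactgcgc
Rpl34 (chr3:130730528-130730573, minus strand): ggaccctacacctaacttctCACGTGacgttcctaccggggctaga
In Rpl13a, Rpl14 and Rpl23 the E-box lay inside a BMAL1 region, with its first base at −200, −168 and −3 from the start. Rpl19 at −19 and Rpl34 at −216 had the same letters and no region within 1 kb. These positions count from the RefSeq start, which at Rpl34 lay 29 bases from the start used for the regions. Among the matched members that difference was largest at Rps4x, 1020 bases.

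The start of transcription is shown for 6 further genes because it shows the pyrimidine run of the TOP motif within 1 base of the annotated start, with 10 bases before and 20 from the start onwards, and the C and the pyrimidines after it in capitals.
Rpl15 (chr14:18270967-18270996, minus strand): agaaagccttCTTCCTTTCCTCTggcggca
Rpl27a (chr7:109519185-109519214, plus strand): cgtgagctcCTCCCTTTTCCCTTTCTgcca
Rps6 (chr4:86857348-86857377, minus strand): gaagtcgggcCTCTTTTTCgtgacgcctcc
Rps10 (chr17:27635225-27635254, minus strand): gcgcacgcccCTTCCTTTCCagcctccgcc
Rplp2 (chr7:141447641-141447670, plus strand): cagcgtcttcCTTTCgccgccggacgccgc
Rpl18 (chr7:45718061-45718090, plus strand): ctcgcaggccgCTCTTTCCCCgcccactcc
A C followed by at least 4 pyrimidines began exactly at the annotated start in 12 of 59 members (20.3%), against 2.3% of all matched genes. Within 5 bases of the start it was found in 28 (47.5%), against 18.9%. It was found in 7 of 16 members with a BMAL1 region (43.8%) and in 21 of 43 without (48.8%). Of other letters searched on both strands, CCGGAAG (the core bound by ETS factors such as GABP) was in 40.7% of the members against 12% of all matched promoters, ATGGCGG (bound by YY1) in 16.9% against 5.53%, and GGGCGG (bound by SP1) in 62.7% against 47.8%. The variant E-box CACGTT was in 8.47% of the members against 4.82%. These motifs can overlap at their ends, and each share was counted on its own. The members were chosen by count, while the matched genes they are set against were not. Among genes with a BMAL1 region, CCGGAAG was in 31.2% of the 16 members against 18% of all matched genes. For ATGGCGG the shares were 18.8% against 10.5%, and for GGGCGG 81.2% against 76.4%.

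The libraries held 69292382 and 89695667 gene counts with 4-OHT, against 71633387 and 60267540 with EtOH. The fibroblast label fitted the markers: 8 of 10 fibroblast genes averaged at least 1 CPM (counts per 1000000 gene counts), with summed levels of 28640 and 30620 CPM with 4-OHT and 29960 and 27660 CPM with EtOH. Endothelial markers summed to at most 0.159 CPM, muscle markers to at most 1.07 CPM, leukocyte markers to at most 3.25 CPM, epithelial markers to at most 16.2 CPM and pluripotency markers to at most 10.97 CPM. In bulk RNA, fewer cells of a type and less RNA per cell cannot be told apart.

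The 79 genes together took 1.09% and 1.15% of all gene counts with 4-OHT, against 1.12% and 1.09% with EtOH. The groups overlapped, and their means differed by 0.0167 percentage points (exact two-sided permutation p = 0.667, where 0.333 is the smallest this design can give). Levels of different genes are compared per length, in TPM (transcripts per 1000000, scaled within a library), computed from the counts and exon lengths. The median mean level was 303.1 TPM over the family, 253.3 TPM for the large subunit, 433 TPM for the small subunit and 1289 TPM for the 3 stalk genes.

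Rpl8, a large subunit protein close to the site of peptide bond formation, had the highest level, 2268 and 2335 TPM with 4-OHT against 2386 and 2200 TPM with EtOH. Rpl41, which encodes one of the smallest known proteins, had 2017 and 2281 TPM with 4-OHT, against 1947 and 2124 TPM with EtOH. Rpl8 was above Rpl41 in each of the 4 libraries. Rplp0, the base of the stalk that recruits translation factors, had 1715 and 1868 TPM with 4-OHT, against 1824 and 1707 TPM with EtOH. Rps15 averaged 1623 TPM and Rps26, at the exit of the mRNA channel, 1342 TPM over the 4 libraries. From Rpl8 to Rpl29 at 99.3 TPM, 75 genes covered a continuous range, as the plot of levels by gene shows.

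**Figure D1:**
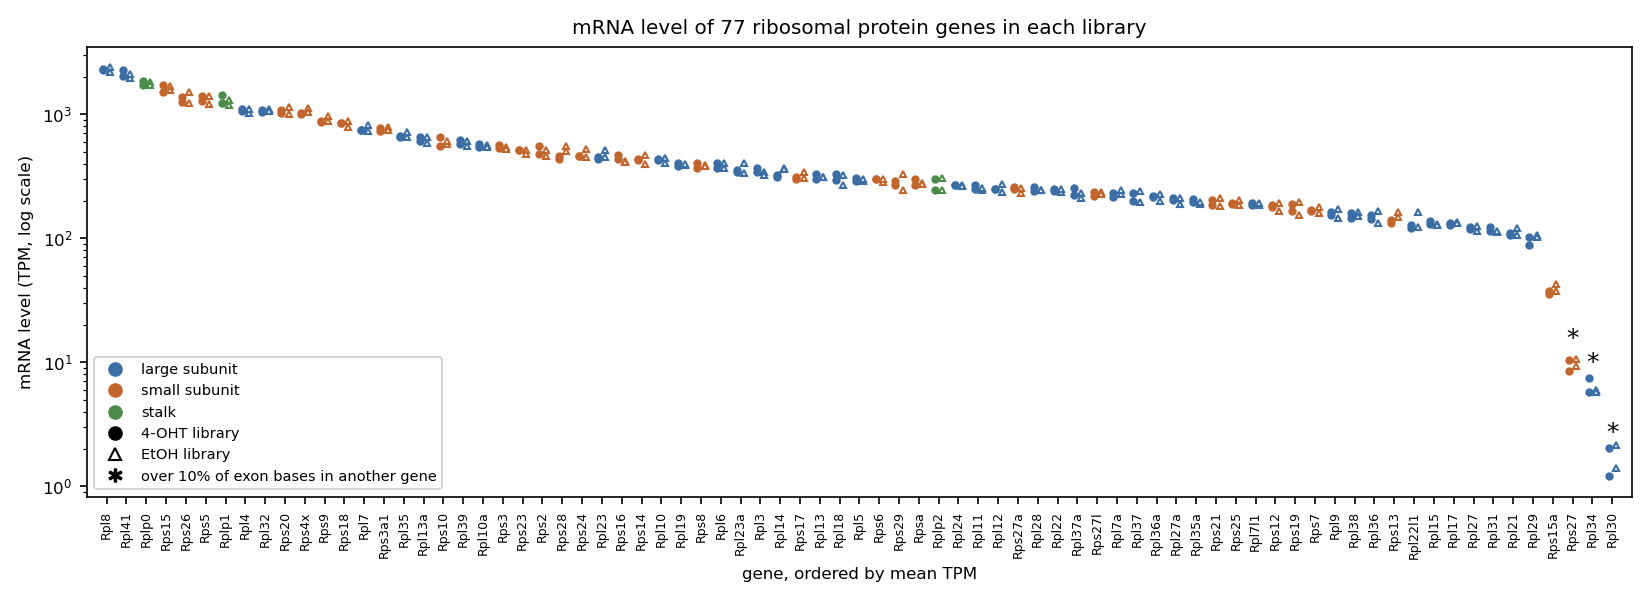
mRNA level in TPM (log axis) of 77 of the genes in each library, ordered by mean level; filled circles are 4-OHT libraries, open triangles EtOH libraries, colours the subunit, and asterisks genes with over 10% of exon bases in another annotated gene. The levels of 73 of them lie between 99.3 and 2297 TPM on average, and the 3 genes with an asterisk lie lowest, at 1.69 to 9.71 TPM.

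The 3 members with the lowest levels overlapped other genes in the annotation. Rpl30 (115 counts in all, just inside the limit of 100) averaged 1.69 TPM, Rpl34 (401 counts) 6.22 TPM and Rps27 (586 counts) 9.71 TPM. These 3 shared 76.04%, 67.2% and 60.0% of their exon bases with another gene annotated on the same strand (Gm12191, Rpl34-ps1 and Gm9846, which held 1, 0 and 0 counts). Rpl26, outside the limit with 0 counts, shared 95.8% with Gm15772, also at 0, and no other gene matching the naming pattern shared over 10%. The counting options in the file header include none that assigns a read overlapping several genes. The levels of Rpl30, Rpl34, Rps27 and Rpl26 are therefore uncertain, and their counts are not read as their expression.

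Rps15a, at 38.4 TPM, has an annotated exon length of 5134 bases, over which its counts were divided. Apart from Rpl26, the genes outside the limit were the tissue-restricted paralogs Rpl3l (10 counts, the nearest below the limit), Rpl10l (0) and Rpl39l (0), together with Rps4y2 (0), none of which shared exon bases in this way. RefSeq names at least 1 pseudogene for 62 of the 79 genes, whose median was 281.6 TPM, against 489.1 TPM for the 17 genes with none and 178.5 TPM for the 12 genes with at least 10. No option for reads that map to several places stands in the header, so reads shared with these copies may be missing from the counts, and this was not tested.

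The question of the mRNA comparison was whether the transcripts moved when PER2 was induced. Of 79 genes, 0 rose and 1 fell with 4-OHT by the quasi-likelihood test of edgeR (adjusted p below 0.05, Benjamini-Hochberg over all 13216 tested genes), while 2.44% of all tested genes passed (0.802% higher, 1.63% lower). All 79 members passed the filter on low counts. Without adjustment 3 members had p below 0.05 in edgeR. The share of all tested genes at that unadjusted threshold was not computed, so this count is not read as a result. DESeq2 called 0 higher and 1 lower (Rpl14), while it called 1.91% of all tested genes (0.507% higher, 1.41% lower). The median log2 change was -0.002 over the family and 0.00208 over all tested genes, and 67 of the 79 members lay within 0.1 log2 units of no change. The members' median standard error was 0.069. The large subunit had a median of 0.00 (0 of 44 called), the small subunit -0.01 (1 of 32 called) and the stalk 0.02 (0 of 3 called). The groups did not overlap in 7 members (2 higher, 5 lower), or 8.86%, against 37.0% of all tested genes.

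**Figure D2:**
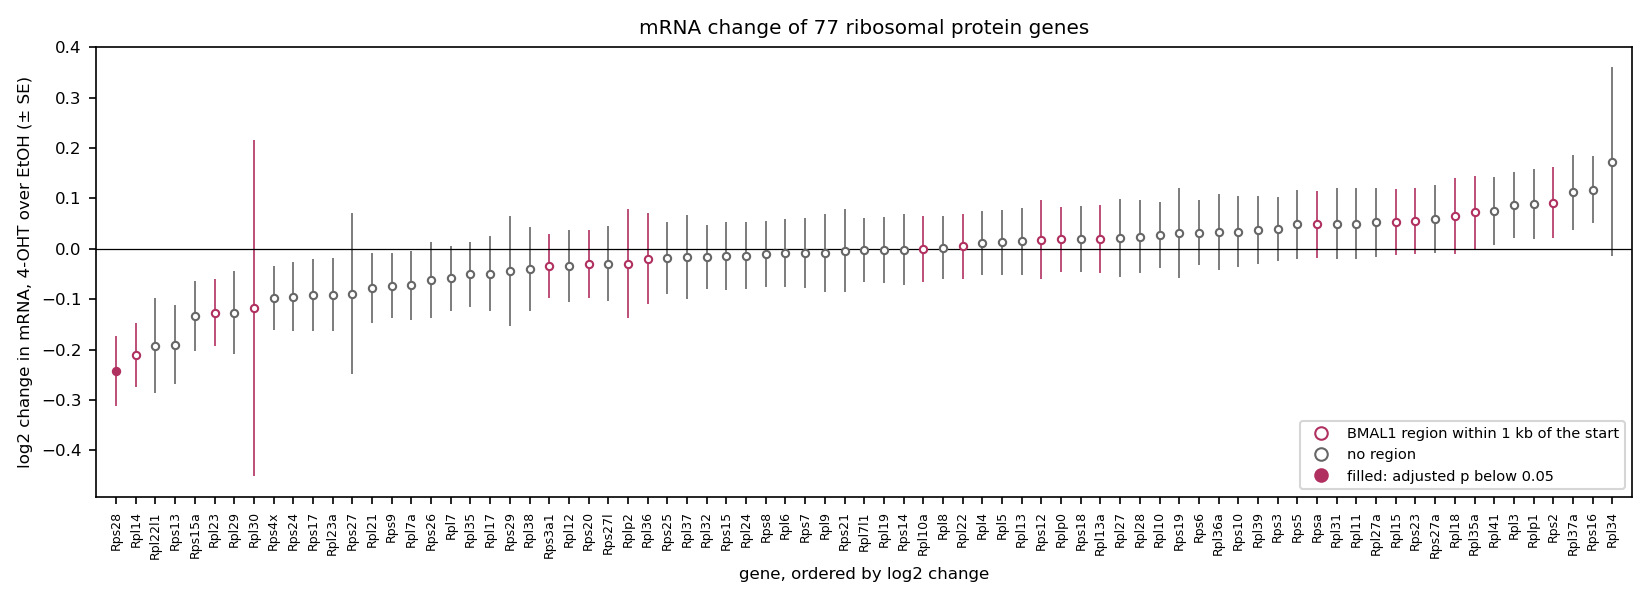
log2 change in mRNA, 4-OHT over EtOH, with its standard error (2 libraries a group), for 77 of the genes in order of change; red genes have a BMAL1 region within 1 kb of the start, and the filled point passed the test. All changes lie between -0.24 and 0.17, and Rps28 at the far left is the only one that passed.

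Rps28, a small subunit protein, had 52.0 and 54.9 CPM with 4-OHT, against 65.8 and 60.6 CPM with EtOH (CPM scaled by TMM factors). Both 4-OHT libraries lay below both EtOH libraries. The log2 change was -0.24 (SE 0.07, adjusted p = 0.0494 by edgeR's quasi-likelihood test), close to the threshold. The call was lost with DESeq2 (adjusted p = 0.0657), with library totals (0.0875), with the replicate block (0.285), and without 4-OHT replicate 1 (0.175), EtOH replicate 1 (0.598) or EtOH replicate 2 (0.133). The authors' deposited DESeq2 table has 3317 rows, of which 3250 have a region within 5 kb. It lists 23 members, without Rpl14, and gives no adjusted p for Rpl30. Rps28 had a log2 change of -0.19 there, and its adjusted p of 0.0620 was the lowest of the listed members.

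Rpl14, of the large subunit, had 108.6 and 107.5 CPM with 4-OHT, against 126.2 and 123.9 CPM with EtOH. Both 4-OHT libraries lay below both EtOH libraries, and 2 libraries a group give little measure of the spread. Its log2 change of -0.21 (SE 0.06) did not pass in edgeR (adjusted p = 0.0729) and passed in DESeq2 (0.0466). In edgeR it also did not pass with library totals (adjusted p = 0.125) or with the replicate block (0.472). Rps28 and Rpl14 both had a BMAL1 region at the start.

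The other members at the lower end did not pass. Rpl22l1, a paralog of Rpl22, had 22.2 and 21.1 CPM with 4-OHT against 28.1 and 21.2 CPM with EtOH, a log2 change of -0.19 (SE 0.09). Its 2 EtOH libraries differed from each other more than the lower one did from the 4-OHT libraries. Without EtOH replicate 2 the edgeR test called it, at -0.38 with an adjusted p of 0.0377, and without EtOH replicate 1 its value was 0.03 (adjusted p = 0.975), so the size rests on 1 EtOH library. Rps13 was at -0.19 (SE 0.08), Rps15a at -0.13 (SE 0.07) and Rpl23, a large subunit protein that also binds MDM2, at -0.13 (SE 0.07). Among the largest positive values were 0.17 (SE 0.19) for Rpl34, 0.12 (SE 0.07) for Rps16, 0.11 (SE 0.07) for Rpl37a and 0.09 (SE 0.07) for Rps2. The value of Rpl34 rests on the uncertain counts described above and is not read as its expression. The other paralogs among the members were at 0.00 (Rpl7l1, SE 0.06) and -0.03 (Rps27l, SE 0.07).

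Members tended to share a direction between the 2 replicates of a treatment. In 60 of 79 members (75.9%) the level was higher in 4-OHT replicate 2 than in 4-OHT replicate 1, and in 53 (67.1%) higher in EtOH replicate 1 than in EtOH replicate 2. Both held in 43 members, and the median differences were 0.09 and 0.06 log2 units. Among the other 13137 tested genes the shares were 51% and 49.9%. The median deviation from a gene's mean over the 4 libraries was -0.04 and 0.04 log2 units with 4-OHT, against 0.03 and -0.03 with EtOH.

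Length moved with this pattern. Of the 61 members with an exon length under 1000 bases, 82% were higher in 4-OHT replicate 2 and 72.1% in EtOH replicate 1, against 55.6% and 50% of the 18 longer members. Other tested genes under 1000 bases had shares of 66.1% and 56.2%, and longer ones 49.8% and 49.4%. Mitochondrial ribosomal protein genes had 69.7% and 42.1%. The library with more counts was the higher one in each treatment. The part of length and depth in these differences between replicates was not tested. Leaving out 1 library at a time moved the members' median log2 change between -0.0415 and 0.0329.

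**Figure D3:**
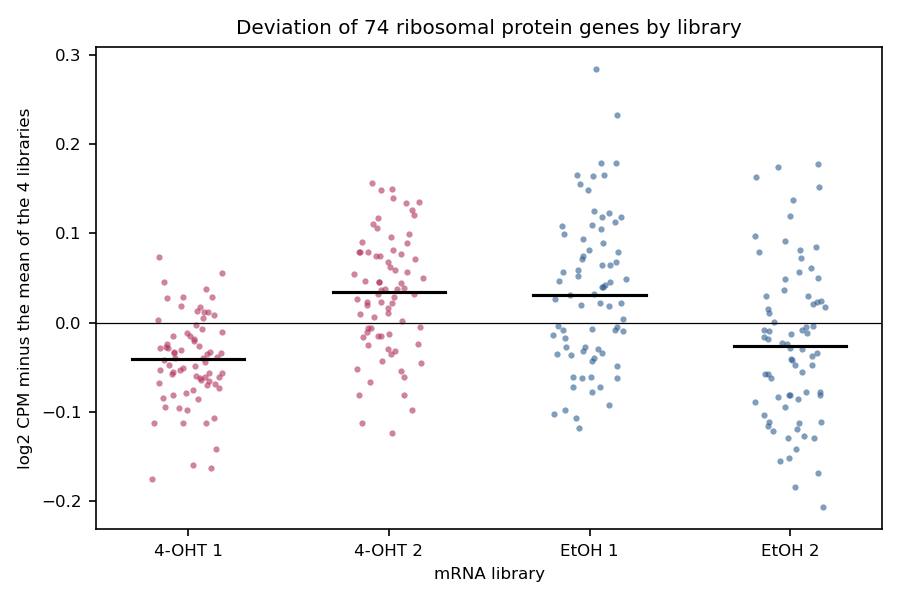
Deviation of each gene's log2 CPM from its mean over the 4 mRNA libraries for 74 members (among others Rpl30, Rpl34 and Rps27 are left out, for their low counts), by library, with black bars at the medians. The 4-OHT libraries are in red and the EtOH libraries in blue; the points sit low in 4-OHT 1 and EtOH 2 and high in 4-OHT 2 and EtOH 1.

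Genes that work with the family were read in the same fit. Of 76 mitochondrial ribosomal protein genes, 58 genes of ribosome assembly (such as fibrillarin, nucleolin and the RNA polymerase I subunits), 21 translation factors and other TOP mRNAs, 27 genes of growth control (such as Myc and the mTOR complex) and 11 snoRNA host genes, 0 rose and 0 fell. Their median log2 changes were 0.00, -0.04, 0.00, -0.01 and -0.06. Negative values numbered 37, 40, 12, 15 and 8 genes in the same order, and a lean of any list was not tested. Over all tested genes the median was 0.00208, and 2.44% passed. Among 4 ribosomal proteins named outside the pattern none passed. Fau was at 0.10 (SE 0.07), Rpl36al at -0.03 (SE 0.07) and Gnb2l1, which encodes RACK1, at 0.01 (SE 0.06).

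BMAL1 regions, which the authors called on EtOH-treated cells, lay within 1 kb of the start in 20 of the 79 members (25.3%), against 21.5% of all tested genes. They were 10 of 44 large subunit genes, 8 of 32 small subunit genes and 2 of 3 stalk genes. Each had 1 region, whose nearest edge was at most 158 bases from the start. The region centres lay at a median of 1.25 bases downstream of the start, with quartiles of -54 and 96.6 bases, against -166 and 159 bases for other pairs of a gene start and a region. The authors' fold enrichment was 4.68 to 24.4 with a median of 8.05 (8.11 for other regions at gene starts). At a fold enrichment of at least 10, 7 members kept a region (8.86%), against 4.89% of all genes in the count table. Over that wider set, which includes untested genes, 12.7% had a region at any fold enrichment. Of the lists above, translation factors and TOP mRNAs had a region in 52.4%, ribosome assembly genes in 51.7%, growth control genes in 48.1%, snoRNA host genes in 27.3%, mitochondrial ribosomal protein genes in 21.1% and the 4 ribosomal proteins outside the pattern in 0%. Members with a region had a median level of 403.5 TPM, against 295.6 TPM without.

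Some of these starts are shared. Another annotated gene began within 1 kb of the region at Rpl15 (Nkiras1), Rps28 (Ndufa7), Rpl18 (Sphk2), Rpl35a (Iqcg) and Rpl30 (Gm12191), and small nucleolar RNA genes or a host gene at Rplp2, Rpl23 and Rps2. At these the region cannot be assigned to the ribosomal protein gene alone.

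BMAL1 signal was read as reads per 10000000 library reads in a region, not corrected for region length. Over the 20 regions the median signal was 8.37 and 9.90 with 4-OHT, against 27.0 and 23.0 with EtOH. The inputs had 2.40 and 3.14 with 4-OHT, against 2.91 and 2.83 with EtOH. The ChIP groups did not overlap (exact two-sided permutation p = 0.333, the smallest this design can give).

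With library totals as the scale, 18 of 20 regions fell with 4-OHT by edgeR's quasi-likelihood test (adjusted p below 0.05), against 93.8% of all 4740 regions, and the median log2 change was -1.44, a 2.71-fold fall, against -1.66 and 3.17-fold over all regions. Because the regions were chosen on EtOH-treated cells, the signal with EtOH is part of how they were chosen, at these genes as at all others. In 14 of 20 the fall was smaller than the median of all regions. Scaling on the regions themselves (TMM) moved the median of all regions to 0.02 and that of the 20 to 0.25. The fall is therefore one relative to library reads. Of the 20, 0 were called under this scaling, against 1.39% of all regions called higher and 4.81% lower. With the change in the inputs subtracted, 8 of 20 passed, against 50.5% of all regions. Both 4-OHT libraries lay below both EtOH libraries in 19 of 20 regions, against 98.0% of all.

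**Figure D4:**
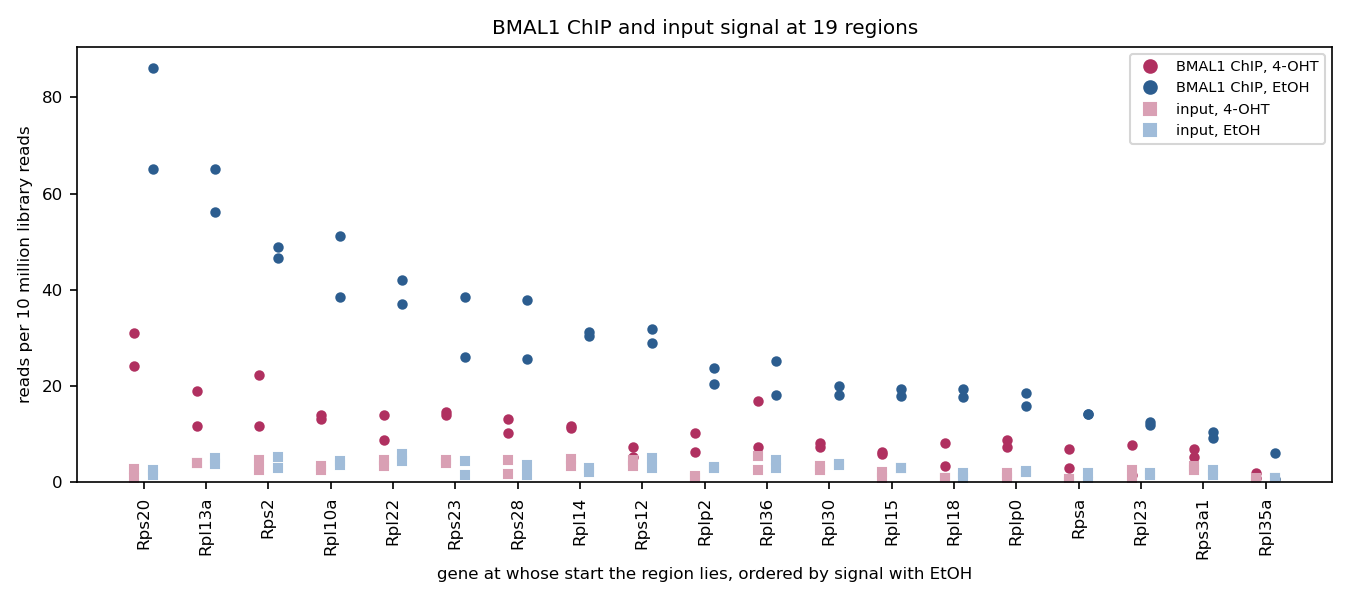
Reads per 10000000 library reads in 19 of the regions, ordered by signal with EtOH; red circles are BMAL1 ChIP with 4-OHT, blue circles BMAL1 ChIP with EtOH, and pale squares the inputs of each treatment. At 18 genes both 4-OHT points lie under both EtOH points, and at Rpl35a they do not.

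At Rps20, a small subunit protein of the head, the signal was 24.0 and 30.9 with 4-OHT, against 65.2 and 86.2 with EtOH. This was the highest signal per region of the 20 in both treatments, and its fall was -1.45 (SE 0.22, adjusted p = 2.73e-10 by edgeR). With the input change subtracted the value was -1.46 and did not pass (adjusted p = 0.0828). Rps12 had the largest fall, with 5.09 and 7.24 under 4-OHT against 28.9 and 31.8 under EtOH, or -2.25 (SE 0.36). Its inputs had 3.20 and 4.48 with 4-OHT, and the ChIP with 4-OHT did not pass over input there (log2 0.62, SE 0.47, adjusted p = 0.210 by edgeR).

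Rpl13a, which in human cells also takes part in translational silencing by the GAIT complex, had 11.6 and 18.8 with 4-OHT, against 65.2 and 56.1 with EtOH. Both 4-OHT libraries lay well below both EtOH libraries, and the log2 change was -1.93 (SE 0.27). Its region holds the E-box shown above at −200.

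The other 2 genes with an E-box inside the region differed in depth. Rpl14 had 11.6 and 11.1 with 4-OHT, against 30.4 and 31.2 with EtOH, a change of -1.44 (SE 0.32) with replicates close together. Rpl23 had 1.46 and 7.73 with 4-OHT (2 and 16 reads), against 11.8 and 12.5 with EtOH (16 and 22 reads). Its change of -1.23 (SE 0.45) passed (adjusted p = 0.00770 by edgeR), and the call was lost without EtOH replicate 2 and with DESeq2. It also rested on the 4-OHT libraries, at -0.65 (edgeR adjusted p = 0.152) without 4-OHT replicate 1 and -3.00 without 4-OHT replicate 2. With the input change subtracted it was -0.37 (adjusted p = 0.797).

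Rps28, whose mRNA was the one call above, had 10.2 and 13.0 with 4-OHT, against 37.8 and 25.5 with EtOH, a change of -1.39 (SE 0.32). The start of Ndufa7 also lies within 1 kb of this region. The stalk gene Rplp0 had 7.28 and 8.69 with 4-OHT, against 18.5 and 15.9 with EtOH, a log2 change of -1.07 (SE 0.39). Its call, not its size, was lost without EtOH replicate 1 (-0.97, edgeR adjusted p = 0.0654) and with DESeq2 (-1.09, adjusted p = 0.103), and with the input change subtracted it was -0.59 (adjusted p = 0.543). Rplp2, which forms the stalk with Rplp1, had 10.2 and 6.28 with 4-OHT, against 23.7 and 20.4 with EtOH, and fell by 1.46 (SE 0.37). Its inputs also differed, with 0.801 and 1.20 with 4-OHT against 2.91 and 3.18 with EtOH, and with the input change subtracted its value was -0.01.

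The smallest changes were at Rps3a1, Rpl36 and Rpl35a. Rps3a1 had 5.09 and 6.76 with 4-OHT, against 10.4 and 9.07 with EtOH (-0.66, SE 0.46, adjusted p = 0.153 by edgeR). Rpl36 had 7.28 and 16.9 with 4-OHT, against 25.2 and 18.2 with EtOH (-0.73, SE 0.33, adjusted p = 0.0308), and the call was lost without 4-OHT replicate 1 (-0.33) or EtOH replicate 1 (-0.51), with the input change subtracted (-0.89) and with DESeq2. Without 4-OHT replicate 2 it was at -1.54. Rpl35a, mutated in some human Diamond-Blackfan anemia, had 1 and 4 reads with 4-OHT, against 8 and 1 with EtOH (-0.97, SE 0.87, edgeR adjusted p = 0.272). Its log2 ratio to input was 1.08 with 4-OHT and 1.93 with EtOH, and neither passed (edgeR adjusted p = 0.360 and 0.0571). At this depth a change at Rpl35a was not detectable, and without EtOH replicate 1 its value was 1.24. A further 8 regions, at 5 large subunit genes (Rpl10a, Rpl15, Rpl18, Rpl22 and Rpl30) and 3 small subunit genes (Rps2, Rps23 of the decoding centre, and Rpsa, also known as the laminin receptor), passed, at log2 changes between -1.78 and -1.16, and DESeq2 with library totals lost Rpsa among them (adjusted p = 0.0643). With the input change subtracted, 5 of these 8 did not pass. They were Rpsa at -0.12, Rpl15 at -0.90, Rpl30 at -1.09, Rpl18 at -1.11 and Rpl10a at -1.40 (edgeR adjusted p from 0.059 to 0.997). Without 4-OHT replicate 2 Rpsa was at -2.25.

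Binding above input remained measurable at most of these starts with 4-OHT. By edgeR's quasi-likelihood test 18 of 20 regions were above input with 4-OHT, against 80.6% of all regions, and 19 of 20 with EtOH, against 99.5%. Because the regions were called on EtOH-treated cells, the values with EtOH largely follow from that choice and are no test of binding. The median log2 ratio to input was 1.89 with 4-OHT (1.88 over all regions) and 3.14 with EtOH (3.61). Without 4-OHT replicate 2 the count with 4-OHT was 13, and the share of all regions was 61.3%. In 15 of 20 regions 4-OHT replicate 2 was above 4-OHT replicate 1 (75%), against 57.2% of all regions.

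The mRNA of the 20 bound genes stayed near its EtOH level while BMAL1 signal at their starts was lower. Their median log2 mRNA change was 0.01, with 1 called (2.44% of all tested genes were), against 0.00 and 0 called for the 59 genes without a region. Groups did not overlap in 4 of the 20 (1 higher, 3 lower) and in 3 of the 59, against 37.0% of all tested genes. Rps12 and Rpl13a, among the largest falls in BMAL1 signal, had mRNA changes of 0.02 (SE 0.08) and 0.02 (SE 0.07). The highest mRNA value of the bound genes was that of Rps2, 0.09, and the lowest those of Rps28 and Rpl14. Rpl30 is among the 20, with the uncertain counts described above (0.273 to 0.492 CPM) and a change of -0.12 (SE 0.33). The difference between bound and unbound members was not tested.

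**Figure D5:**
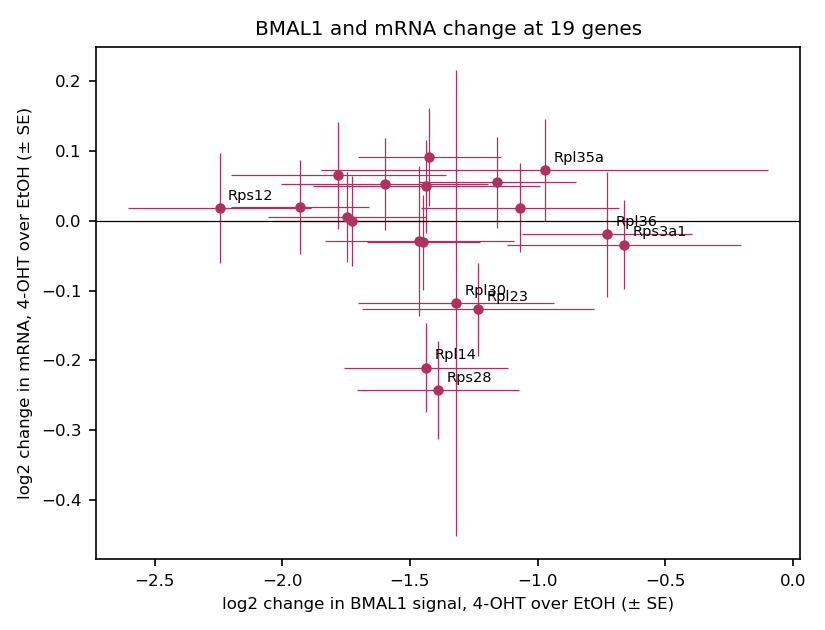
log2 change in mRNA against log2 change in BMAL1 signal, both 4-OHT over EtOH with standard errors, for 19 of the genes with a region within 1 kb of the start. All 19 points lie left of 0 on the BMAL1 axis (library totals), and all but Rps28 and Rpl14 lie between -0.13 and 0.09 on the mRNA axis.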

How the data were processed

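Per the labels' protocols, mRNA libraries were made with a stranded TruSeq kit and ChIP libraries with a ThruPLEX kit. Per the file headers, the authors counted reads per gene with featureCounts (reverse strand, exons joined by gene). Per the submitters' processing notes the build was mm10, with bedtools 2.25.0 and DESeq2; no aligner is named in these sources. The authors deposited, for every ChIP and every input library, a count of reads in 4740 regions. Their deposited region files carry a score, a fold enrichment (ratio) and −log10 p and q values, used here only to describe regions. A deposited signal table, named as RPKM, held 5 plus reads per 10000000 library reads in all values and gave the library totals. The authors' deposited table of log2 fold changes and p-values was used only where named.

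Genes were tested with edgeR 4.0.16 (R 4.3.3; TMM, filterByExpr, quasi-likelihood, robust), regions with the same test on library totals, and DESeq2 1.42.0 was an alternative; the edgeR steps were tested on simulated data. ChIP and input libraries held 12481308 to 33454366 reads, and a region had 0 to 152 reads at these genes. Replicates of the mRNA and ChIP libraries differed beyond sampling noise; the inputs differed no more than counting allows at these regions (chi-square per degree of freedom 1.045 with 4-OHT and 0.9575 with EtOH) and had different depths, so they were kept as 2 each.

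Members, lists and tests were chosen with earlier results of these data known. Genes named are all members with a region or a call, the 5 highest and 5 lowest in level, the 5 largest changes each way, paralogs, the genes beside the count limit and, for sequences, genes whose promoter shows the motif named, chosen after the sequences were read. Some genes that this rule would name are not reported here and are left out of the plots; they stay in all counts and tests.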

Additional observations from a re-analysis of the deposited data

How the results depend on the processing

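The median mRNA change of the members and their 0 higher calls held their place with DESeq2, DESeq2 size factors, TMM without the members, no filter and a summed count of at least 1000, each with 1 lower call (Rpl14 in DESeq2, Rps28 in the others). Among all tested genes 1.4% to 1.66% were called lower under these settings. Lower mRNA calls among the members numbered 0 with library totals (1.48% of all tested genes) and 0 with the replicate block (1.15%). When each library was left out in turn, the members' median ranged over -0.0415 to 0.0329. Same-numbered replicates did not deviate together (correlation -0.168 for mRNA over all tested genes, -0.409 over the members and 0.0218 for BMAL1 ChIP). These values do not show how the samples were paired. The crossed pairing, chosen after seeing the data, gave 4 lower calls among the members and called 4.62% of all tested genes lower. The replicate block left 18 region calls, at a median of -1.46, against 92.3% and -1.66 over all regions.

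Scaling decided the regions. TMM over the regions gave 0 lower calls and a median of 0.246, with 1 region above input in each treatment, and DESeq2 with its own size factors gave 0 lower calls and a median of 0.258, where 1 region had an adjusted p. Values turned positive under TMM and DESeq2's own factors at Rpl14 (0.248 and 0.272), Rpl15 (0.079 and 0.0956), Rpl23 (0.448 and 0.351), Rpl30 (0.362 and 0.389), Rpl36 (0.963 and 0.912), Rplp0 (0.616 and 0.62), Rplp2 (0.22 and 0.276), Rps2 (0.267 and 0.244), Rps20 (0.238 and 0.245), Rps23 (0.536 and 0.543), Rps28 (0.304 and 0.295) and Rpsa (0.244 and 0.199). Values were also positive at Rpl35a (0.67 and 0.54) and Rps3a1 (1.02 and 1.02), which had not passed with library totals. Both scalings centre the regions on no change by construction. Subtracting the input change gave 8 lower calls and a median of -1.26, against 50.5% and -1.82 over all regions. Leaving out each library gave medians of -1.66 to -1.34, against -1.76 to -1.59 over all regions. The difference in the summed mRNA share was then -0.0157 to 0.0491 percentage points. Members with a region numbered 20 within 500 bases (25.3%), 25 within 5 kb (31.65%) and 7 at a fold enrichment of at least 10 (8.86%). Over all genes in the count table, tested or not, the shares were 11.7%, 14.5% and 4.89%. At 1 kb the share of that wider set was 12.7%, against 21.5% of the tested genes. Rpl35a had at most 8 reads in a library, and the 2 libraries a group limit all tests.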
